A study of Mus musculus with 12 samples.

Results

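The 10 genes described here handle calcium in the mouse egg. They were chosen by name, as rows of the study's expression table, and are 10 of 23230 genes listed. All 10 reached at least 1 FPKM (sequenced fragments scaled to transcript length and to library size) in at least 1 library and so were among the 11502 genes tested. They are the inositol trisphosphate receptors Itpr1 and Itpr2, the calcium pumps Atp2a2 and Atp2b1, the store-operated entry proteins Stim1 and Orai1, the plasma membrane channels Trpv3, Trpm7 and Cacna1h, and the calcium-dependent kinase Camk2g.

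Oocytes of wild-type (WT) and Zar1/2-null mice, which lack the RNA-binding proteins ZAR1 and ZAR2, were sequenced in pools of 10 oocytes, with 2 libraries in each of 6 groups. All mice were of a C57BL6/ICR hybrid background, and the null mice carried small CRISPR/Cas9 deletions in both genes, not limited to the oocyte. Growing oocytes came from females labelled as 13.5 days old, where the paper's methods give a lower age. Fully grown germinal vesicle (GV) oocytes came from 21-day-old females 44 h after PMSG, and ovulated oocytes, labelled MII, 16 h after hCG. The label MII rests on the time of collection, and ovulated null oocytes in the study often had not completed meiosis I. At MII, and in changes from GV to MII, comparisons of null with WT oocytes therefore cannot tell genotype and meiotic stage apart. The paper held WT oocytes in meiosis I with nocodazole and found by RT-qPCR that selected transcripts were still degraded. The libraries described here hold no such oocytes. Nothing in the labels says that the libraries of a group came from separate mice, so that p-values measure only the spread between these libraries, which may be technical.

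At fertilization, the mammalian egg shows repeated rises of cytoplasmic calcium. The sperm delivers a phospholipase C that makes inositol trisphosphate, which opens receptors in the endoplasmic reticulum and lets stored calcium out. Pumps of the reticulum and of the plasma membrane clear the calcium again, and channels of the plasma membrane let calcium back in to refill the store. The rises are read by calmodulin-dependent kinase II, whose activity ends the metaphase arrest of the egg. These proteins are made from messages stored during oocyte growth, of which many are degraded when meiosis resumes.

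The values are FPKM that the authors had multiplied by a factor from the ERCC spike-in, synthetic RNA added in equal amount to every lysate, which sets each library relative to the WT growing library of the same replicate number. Recovered from the values, the factors were 1 in the WT growing libraries, 0.862 and 0.779 in the null growing libraries, 0.836 and 0.697 in the WT GV, 0.533 and 0.583 in the null GV, 0.225 and 0.228 in the WT MII and 0.283 and 0.252 in the null MII libraries. A difference between groups therefore holds both a change in the share of a transcript and the change credited to the whole library. Since each library pools oocytes, less of a message in every oocyte and its loss from some of them cannot be told apart. The table holds no counts, so the reads behind a single value, and its counting error, are not known. Zar2, whose row carries the symbol Zar1l (chr5:151309630-151320739, mm9), averaged 642 FPKM in WT growing and 15.3 FPKM in null growing oocytes, and 519 against 20.3 FPKM in GV oocytes. Zar1 (chr5:72968353-72972323) averaged 664 FPKM in WT and 433 FPKM in null growing, 431 and 169 FPKM in GV and 78.0 and 192 FPKM in MII oocytes, and its null allele is a small deletion that need not remove the transcript. The 11 oocyte markers summed to 2586 to 20459 FPKM per library. The 16 granulosa and cumulus markers summed to 4.29 to 26.7 FPKM, with Ptx3, Areg and Ereg listed at 0 in every group, and the 6 immune markers to 0.498 to 3.21 FPKM.

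Libraries were primed on the poly(A) tail, and tails of stored messages are remodelled as the oocyte matures, so elements that direct tailing are shown for members on which the comparisons turn. Each line gives 30 bases of the 3′ UTR in the sense of the transcript, with the polyadenylation signal, or for the last line a cytoplasmic polyadenylation element (CPE), in capitals.
Itpr1: ctaaaaatatttAATAAAcgatgcagaatc
Itpr2: taagttaatattAATAAAatgaatttgtgt
Camk2g: ttgaagatatttAATAAAataacctttaaa
Trpm7: tctttaaaagaaATTAAAtttattcttgtt
Atp2b1 signal: cttaactcatttAATAAAtatactgtttat
Atp2b1 CPE: agccactgagccTTTTATtatttgtctatt

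The sites lie at chr6:108501072-108501101 (plus strand) for Itpr1, chr6:146056836-146056865 (minus) for Itpr2, chr14:21554102-21554131 (minus) for Camk2g and chr2:126617305-126617334 (minus) for Trpm7, all in mm9 with transcript ends of the GENCODE annotation of that build. The Atp2b1 sites lie at chr10:98488737-98488766 and chr10:98488691-98488720 (plus), with the CPE starting 46 bases before the signal. In the last 100 bases of the annotated 3′ UTR, read on the sense strand, AATAAA was found in 7 of the 10 members and ATTAAA in 1 (Trpm7). Neither motif was in that window of Orai1 and Stim1. Among 9963 tested genes with a 3′ UTR of at least 100 bases, 65.4% held AATAAA and 21.6% ATTAAA, and 80.3% held either. A CPE (TTTTAT or TTTTAAT) was found in 1 member, Atp2b1, and in 20.1% of these genes. The median 3′ UTR was 1630 bases over the members and 906 over these genes. A match of letters is a description only, and the ends used in oocytes were not measured.

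Levels of the members in WT growing oocytes spanned from Camk2g, at 77.3 and 90.2 FPKM, to Cacna1h, at 1.05 and 1.46 FPKM. Camk2g, Atp2a2 and Orai1 were the highest, at 40.5 FPKM or more in both WT growing libraries, while Atp2b1, Trpm7 and Itpr2 lay between 8.97 and 25.3 FPKM, and Itpr1 was at 6.73 and 6.93 FPKM. Stim1, Trpv3 and Cacna1h were at or under 2.03 FPKM. For these last genes the 1 FPKM added before taking logs makes the log2 fold change smaller than that of the levels. In the WT MII libraries the order had shifted, and Atp2a2, Camk2g, Itpr2 and Atp2b1 were the only members above 3 FPKM.

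**Figure D1:**
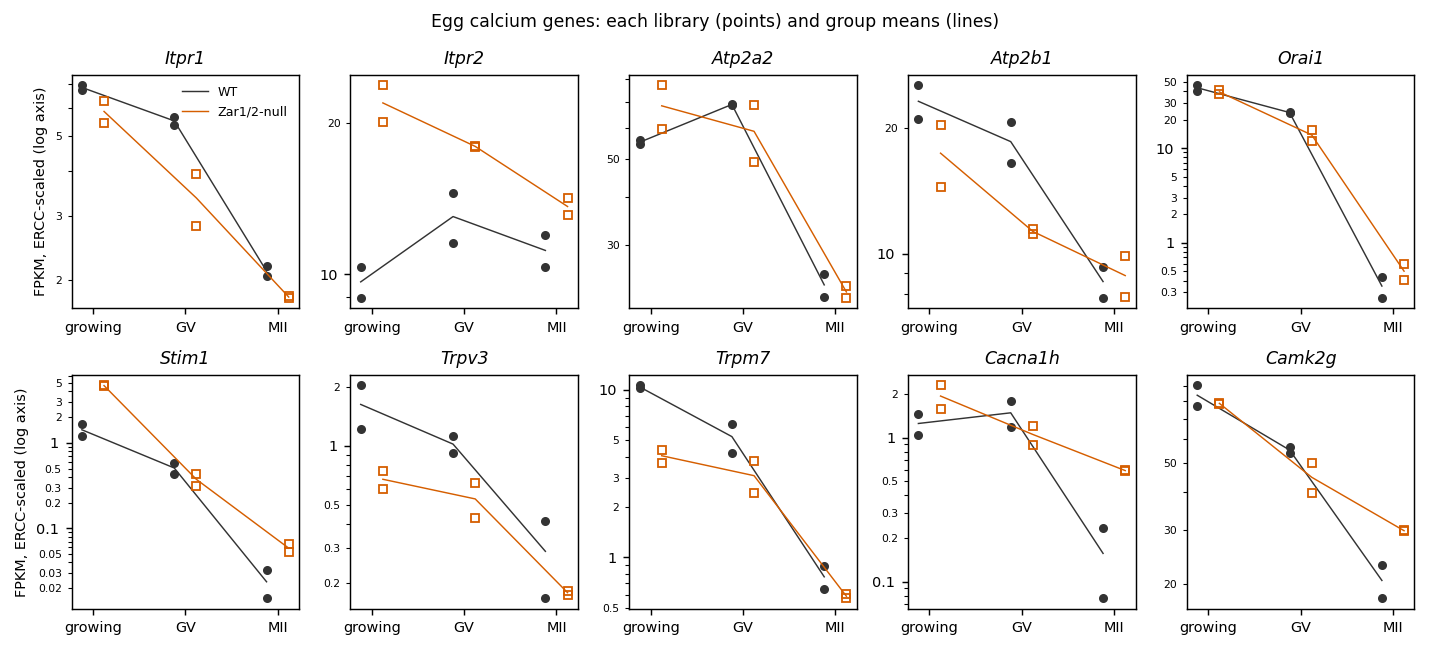
FPKM after ERCC scaling (log axis, with its own range for each gene) of the 10 calcium genes at the growing, GV and MII stages. Points are single libraries, filled circles WT and open squares Zar1/2-null, and lines join the means of 2 libraries. The null libraries lie above the WT libraries at every stage for Itpr2, Stim1 stands apart between genotypes in growing oocytes, and Orai1 drops under 1 FPKM at MII in both genotypes.

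The question of what loss of ZAR1 and ZAR2 changes was addressed at each stage by comparing null with WT oocytes. Differences are given on the log2(FPKM + 1) scale with their standard error (SE) from a limma fit over all 12 libraries, and a gene is said to have risen or fallen when its Benjamini-Hochberg adjusted p over all 11502 genes was under 0.05. With 2 libraries against 2, an exact permutation test cannot give a two-sided p below 0.333. In growing oocytes Itpr2 and Stim1 were higher in the null libraries and Trpm7 and Trpv3 lower. That is 2 of 10 members higher, where 10.6% of all genes tested were called higher, and 2 lower, where 24.4% were. Without ERCC scaling 2 members were higher and 1 lower, and 1711 of all genes tested were higher and 1412 lower.

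Itpr2 (chr6:146056821-146450745) encodes a receptor that releases calcium from the endoplasmic reticulum. It was at 8.97 and 10.3 FPKM in the WT growing libraries and at 23.7 and 20.0 FPKM in the null growing libraries. Both null libraries lay above both WT libraries, by 2.27 times in the means. The difference was 1.10 (SE 0.16, limma, Benjamini-Hochberg adjusted p = 0.000391), and it stayed past the threshold without ERCC scaling (1.38) and with each library left out in turn.

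Stim1 (chr7:109416338-109585362) encodes the calcium sensor of the reticulum, which opens ORAI channels when the store is empty. It was at 1.65 and 1.19 FPKM in WT and at 4.68 and 4.65 FPKM in null growing oocytes, so that the groups stood well apart. The means differed 3.28-fold, and Stim1 was the only member that passed the study's 3-fold rule in growing oocytes, as 0.982% of genes tested did in the same direction. The difference was 1.23 (SE 0.13, limma, adjusted p = 5.11e-05).

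Trpm7 (chr2:126617301-126701966) encodes a channel for divalent cations that is fused to a kinase. Its levels were 10.2 and 10.6 FPKM in WT and 4.41 and 3.69 FPKM in null growing oocytes, a fall to 0.388 of the WT mean with no overlap. The difference was -1.18 (SE 0.19, limma, adjusted p = 0.000884), and without ERCC scaling it was -0.95 and still past the threshold.

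Trpv3 (chr11:73080890-73113865), a cation channel of the plasma membrane of the egg, was at 2.03 and 1.22 FPKM in WT and at 0.746 and 0.601 FPKM in null growing oocytes. The groups did not overlap, but both were low and the WT libraries lay far from each other. The difference was -0.63 (SE 0.16, limma, adjusted p = 0.0120). It missed the threshold without WT replicate 1 (limma, adjusted p = 0.0902), without null replicate 2 (0.0704) and without ERCC scaling (0.131), in a range of 0.00466 to 0.145 over all alternatives.

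The other 6 members did not pass the test in growing oocytes. Itpr1 was at 6.73 and 6.93 FPKM in WT and at 5.45 and 6.26 FPKM in null growing oocytes. Camk2g differed by -0.08 with a 95% interval of -0.45 to 0.28, and Orai1 by -0.14 with an interval of -0.50 to 0.21. The null libraries lay wholly above WT in 4 members and wholly below in 4, against 22.4% and 47.4% of all genes tested. The 16 granulosa and cumulus markers, led by Cyp19a1, summed to 23.5 to 26.7 FPKM in WT and 6.01 to 10.9 FPKM in null growing oocytes, and their part in these differences was not tested.

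In GV oocytes the direction of the members was mostly downward in the null group. Itpr1, Atp2b1, Orai1 and Trpm7 fell and Itpr2 rose. These are 4 of 10 members lower, where 40.6% of all genes tested were lower, and 1 higher, where 2.83% were. The median difference was -0.35 over the members and -0.38 over all genes tested. The granulosa and cumulus markers summed to 13.4 to 16.1 FPKM in WT and 9.66 to 11.3 FPKM in null GV oocytes, and their part was not tested. Without ERCC scaling the median over all genes was -0.03, 1 member (Itpr2) was higher and 0 were lower, and 827 of all genes tested were higher and 1554 lower.

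Itpr1 (chr6:108163112-108501103) encodes the main calcium release receptor of the egg. It was at 5.65 and 5.37 FPKM in the WT GV libraries and at 3.93 and 2.81 FPKM in the null GV libraries, with no overlap. The difference was -0.59 (SE 0.14, limma, adjusted p = 0.00769). It was -0.24 without ERCC scaling (limma, adjusted p = 0.435) and missed the threshold narrowly without WT replicate 1 (0.0507), and adjusted p over all alternatives ran from 0.00345 to 0.578.

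Itpr2 moved the other way, from 14.5 and 11.5 FPKM in WT to 18.0 and 17.9 FPKM in null GV oocytes. The null libraries were close together and lay above both WT libraries, which differed more. The difference was 0.44 (SE 0.16, limma, adjusted p = 0.0406), and 0.89 without ERCC scaling (limma, adjusted p = 0.00112). With ERCC scaling it missed the threshold without WT replicate 2 (limma, adjusted p = 0.199), null replicate 1 (0.102) or null replicate 2 (0.0872), with a range of 0.000602 to 0.199 over all alternatives.

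Orai1 (chr5:123465083-123480459) encodes the pore of the store-operated calcium channel. It was at 24.1 and 23.3 FPKM in WT and at 11.9 and 15.6 FPKM in null GV oocytes, 0.580 of the WT mean. The difference was -0.76 (SE 0.16, limma, adjusted p = 0.00349), and it held with each library left out in turn. Without ERCC scaling it was -0.33 and was not called (limma, adjusted p = 0.256, range over all alternatives 0.00234 to 0.389).

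Atp2b1 (chr10:98377786-98488777), a pump that exports calcium across the plasma membrane, was at 20.6 and 16.5 FPKM in WT and at 11.2 and 11.5 FPKM in null GV oocytes. The difference was -0.66 (SE 0.19, limma, adjusted p = 0.0183). Trpm7 was at 6.31 and 4.23 FPKM in WT and at 3.75 and 2.41 FPKM in null GV oocytes, a difference of -0.62 (SE 0.19, limma, adjusted p = 0.0238). For both genes each null library lay below each WT library. Atp2b1 missed the threshold without WT replicate 1 or either null library (limma, adjusted p = 0.0523 to 0.144) and Trpm7 without WT replicate 1 (0.215) or null replicate 2 (0.165), and neither was called without ERCC scaling. Over all alternatives the adjusted p of limma ran from 0.00499 to 0.586 for Atp2b1 and from 0.0118 to 0.555 for Trpm7.

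Stim1, which stood apart in growing oocytes, was at 0.585 and 0.430 FPKM in WT and at 0.436 and 0.312 FPKM in null GV oocytes. Its libraries overlapped between genotypes there. Atp2a2 (chr5:122903531-122952183), the pump that refills the reticulum, was at 69.0 and 69.1 FPKM in WT and at 68.6 and 49.2 FPKM in null GV oocytes, and its difference of -0.24 had a 95% interval of -0.65 to 0.16.

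In oocytes labelled MII, Camk2g was the only member that passed the test between genotypes. Camk2g (chr14:21554097-21613310) encodes the gamma subunit of calmodulin-dependent kinase II, the isoform that eggs rely on to leave metaphase arrest. It was at 17.9 and 23.1 FPKM in WT and at 29.8 and 30.1 FPKM in null MII oocytes, 1.46 times the WT mean. That is 1 member of 10 higher, where 21.5% of all genes tested were, and 0 were lower, where 10.3% were. At an unadjusted p under 0.05 in limma, 2 members were higher and 0 lower, against 26.3% and 14.3% of all genes tested. Without ERCC scaling 2831 of all genes tested were higher and 2694 lower, and the only member called was Cacna1h, higher.

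The Camk2g difference was 0.53 (SE 0.17, limma, adjusted p = 0.0293), with both null libraries above both WT libraries. It missed the threshold without WT replicate 1 (limma, adjusted p = 0.216), null replicate 1 (0.102) or null replicate 2 (0.106), and without ERCC scaling (0.121), in a range of 0.0182 to 0.216 over all alternatives. Cacna1h (chr17:25511230-25570728), a voltage-gated channel of the T type, was at 0.0769 and 0.238 FPKM in WT and at 0.587 and 0.595 FPKM in null MII oocytes. All 4 values were under 1 FPKM, and the difference of 0.46 did not pass (limma, adjusted p = 0.0633). The means differed 3.76-fold. Without ERCC scaling they were 0.692 FPKM in WT and 2.22 FPKM in null MII oocytes, which is not a larger ratio. There the added 1 FPKM compresses the log2 difference less. Without ERCC scaling it was 0.96 and passed (limma, adjusted p = 0.0117), in a range of 0.00414 to 0.295 over all alternatives.

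The granulosa and cumulus markers summed to 4.29 to 4.38 FPKM in WT and 6.17 to 7.34 FPKM in null MII oocytes, and their part was not tested.

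Neither release receptor passed the test at MII. Itpr1 was at 2.05 and 2.18 FPKM in WT and at 1.80 and 1.78 FPKM in null oocytes, a difference of -0.16 with a 95% interval of -0.48 to 0.16. Itpr2 was at 10.4 and 11.9 FPKM in WT and at 14.2 and 13.1 FPKM in null oocytes, a difference of 0.27 with an interval of -0.07 to 0.62. Missing the threshold does not show that the levels were equal.

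**Figure D2:**
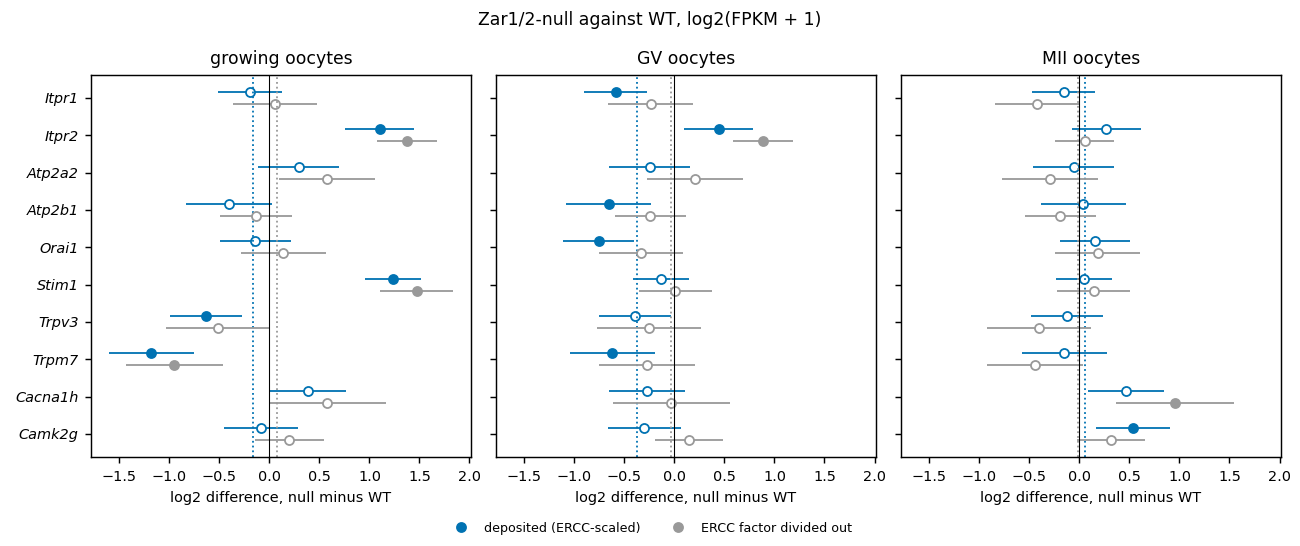
Difference between Zar1/2-null and WT oocytes (horizontal axis, log2(FPKM + 1)) for each calcium gene, with 1 panel per stage. Points are limma estimates with 95% intervals, blue as deposited and grey without ERCC scaling, filled where the adjusted p was under 0.05, and dotted lines mark the median of all genes tested. Itpr2 and Stim1 lie to the right and Trpm7 to the left in growing oocytes under both, whereas the 4 lower genes of GV oocytes are filled only with ERCC scaling.

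The stages of WT oocytes were compared to ask how the messages behave as oocytes finish growth. From growing to GV, Orai1, Stim1, Trpm7 and Camk2g fell and 0 members rose, where 28.7% of all genes tested were lower and 2.77% higher. At an unadjusted p under 0.05 in limma, 1 member (Itpr2) was higher, against 4.53% of all genes tested. Trpv3 joined the lower members at that threshold (limma, unadjusted p = 0.0489), where 40.1% of all genes tested were lower. Orai1 went from 40.5 and 46.2 FPKM to 24.1 and 23.3 FPKM, a difference of -0.84 (SE 0.16, limma, adjusted p = 0.00470). Trpm7 went from 10.2 and 10.6 FPKM to 6.31 and 4.23 FPKM (-0.89, limma, adjusted p = 0.00808) and Camk2g from 77.3 and 90.2 FPKM to 56.5 and 53.9 FPKM (-0.59, limma, adjusted p = 0.0228). For all 4 genes the GV libraries lay below the growing libraries.

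Trpm7 lost its call without WT growing replicate 2 (limma, adjusted p = 0.0536) or WT GV replicate 2 (0.0831), in a range of 0.00759 to 0.141 over all alternatives. Camk2g lost it without WT growing replicate 2 or either WT GV library (limma, adjusted p = 0.0519 to 0.149), in a range of 0.0161 to 0.434. Without ERCC scaling 0 members were lower, and 1 was higher, Itpr2, at 0.75 (limma, adjusted p = 0.0120, range over all alternatives 0.0120 to 0.311), and 421 of all genes tested were higher and 372 lower.

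In the null oocytes 6 members fell from growing to GV, and 0 rose, where 55.9% of all genes tested fell and 4.76% rose. They were Itpr1, Atp2b1, Orai1, Stim1, Cacna1h and Camk2g. Without ERCC scaling 2 were lower, Orai1 and Stim1, and 0 higher, with 2455 of all genes tested lower and 1646 higher. Atp2b1 lost its call without null growing replicate 1 or either null GV library (limma, adjusted p = 0.0677 to 0.224, range over all alternatives 0.00707 to 0.945) and Cacna1h without null growing replicate 2 or null GV replicate 2 (0.134 to 0.161, range 0.0142 to 0.644). Stim1 dropped from 4.68 and 4.65 FPKM to 0.436 and 0.312 FPKM, so that a message 3.28-fold above WT in growing oocytes was no longer above WT in GV oocytes. The change was -2.04 in null and -0.68 in WT oocytes, and the difference between these changes was -1.37 (SE 0.18, limma interaction term, adjusted p = 0.00156). Stim1 was the only member called lower by this term, where 11.3% of all genes tested were, and 0 members were called higher, where 2.58% were. It held in all 15 alternatives computed for it, with adjusted p from 0.00191 to 0.0177 in limma. The WT GV and WT growing groups enter several of these comparisons, which are therefore not independent of each other.

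From GV to MII, 9 of 10 members fell in WT oocytes, all but Itpr2, where 93.4% of all genes tested were lower and 0.104% higher. The median change was -1.08 over the members and -1.28 over all genes tested, and without ERCC scaling the latter was -0.43. Without ERCC scaling 4 members were lower and 2 higher, with 5473 of all genes tested lower and 2267 higher.

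Orai1 fell furthest. It went from 24.1 and 23.3 FPKM in WT GV to 0.263 and 0.436 FPKM in WT MII oocytes, 67.9-fold in the means, and from 11.9 and 15.6 FPKM to 0.595 and 0.409 FPKM in null oocytes, 27.4-fold. The change was -4.20 in WT (SE 0.16, limma, adjusted p = 8.27e-10) and -3.29 in null oocytes (limma, adjusted p = 1.64e-08). Without ERCC scaling both changes remained, at -3.67 and -3.16. Under the 3-fold rule, which sets means under 1 FPKM to 1, Orai1 and Trpm7 were the members lower in both genotypes, where 44.2% of genes tested in WT and 27.5% in null oocytes passed.

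Among the channels, Trpm7 fell from 6.31 and 4.23 FPKM to 0.647 and 0.886 FPKM in WT oocytes (-1.81, SE 0.19), and it fell under each scaling. Stim1 and Cacna1h also fell under each scaling, from 0.508 to 0.0237 FPKM and from 1.49 to 0.157 FPKM in the WT means. Trpv3 went from 1.12 and 0.916 FPKM to 0.166 and 0.411 FPKM (-0.65, limma, adjusted p = 0.00264), and without ERCC scaling its change was -0.08 and not called. Orai1, Trpm7, Stim1, Cacna1h and Trpv3 were all under 1 FPKM in both WT MII libraries, and without counts such values are read here only as low.

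Itpr1, Atp2a2, Atp2b1 and Camk2g fell in WT oocytes with ERCC scaling but had positive values without it. Itpr1 went from 5.65 and 5.37 FPKM to 2.05 and 2.18 FPKM (-1.07, SE 0.14), and without scaling its change was 0.33 and not called. Atp2a2 changed by -1.50 and without scaling by 0.21, and Camk2g by -1.40 and 0.31. Atp2b1 changed by -1.02 with scaling and by 0.63 without it, and both values passed the test.

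Itpr2 did not pass the test on the scaled values, at 14.5 and 11.5 FPKM in WT GV and 10.4 and 11.9 FPKM in WT MII oocytes, which overlapped. The change was -0.20 (SE 0.16, limma, adjusted p = 0.232). Without ERCC scaling it was 1.48 and Itpr2 was called higher (limma, adjusted p = 1.82e-06, range over all alternatives 2.72e-07 to 0.793).

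**Figure D3:**
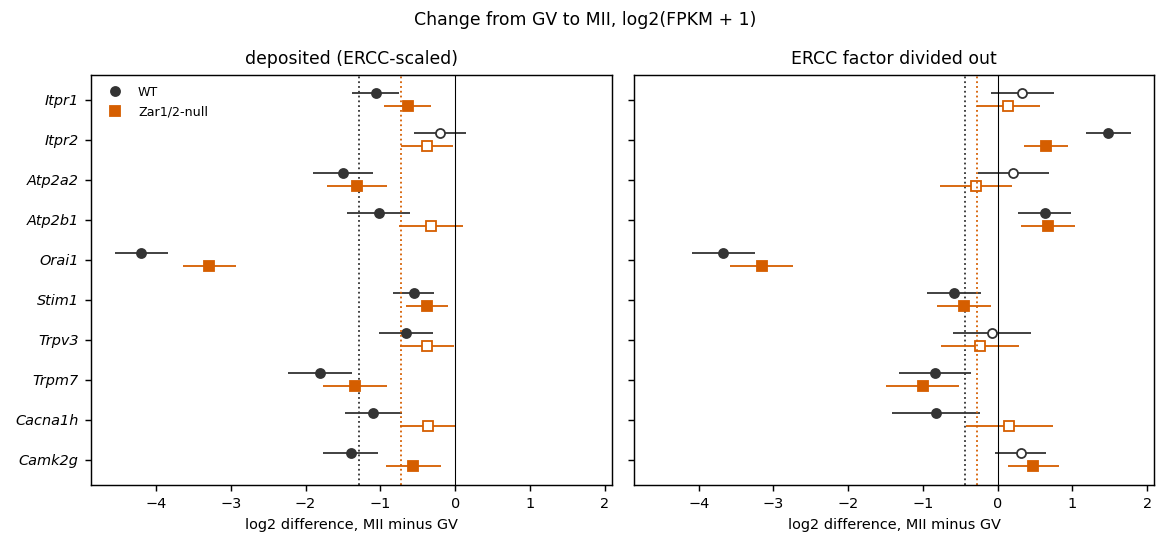
Change from GV to MII (horizontal axis, log2(FPKM + 1)) of the 10 calcium genes in WT and Zar1/2-null oocytes, as deposited and without ERCC scaling. Points are limma estimates with 95% intervals, filled where the adjusted p was under 0.05, and dotted lines mark the median of all genes tested. Orai1 lies far to the left in both genotypes under both, and Itpr2 moves from near 0 to the right once the scaling is removed.

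In null oocytes 6 members fell from GV to MII, and 0 rose, where 68.7% of all genes tested fell and 0.209% rose. They were Itpr1, Atp2a2, Orai1, Stim1, Trpm7 and Camk2g. Without ERCC scaling 3 were lower (Orai1, Stim1 and Trpm7) and 3 higher (Itpr2, Atp2b1 and Camk2g), with 4656 of all genes tested lower and 2248 higher. Itpr2 changed by -0.37 with scaling and 0.65 without it, and Atp2b1 by -0.33 and 0.68, of which only the unscaled values passed. Stim1 lost its call without null GV replicate 1 (-0.31), null MII replicate 1 (-0.37) or null MII replicate 2 (-0.38). With median scaling it was not called either (-0.41, limma, adjusted p = 0.0572). Camk2g lost its call without null GV replicate 2 (-0.40). The change of Camk2g was -0.56 with ERCC scaling, 0.48 without it and 0.76 with median scaling. All of these scaling values passed, in opposite directions. Whether the changes differed between genotypes was tested by an interaction term, called positive or negative when its adjusted p was under 0.05. A positive term means a smaller fall in null oocytes. It was called positive for 3 of 10 members, where 33.9% of all genes tested were, and negative for 0, where 0.643% were. Whatever the call, the term was above 0 for 9 members and below 0 for 1. Orai1 gave 0.91 (SE 0.23, limma, adjusted p = 0.0105), Camk2g 0.84 (SE 0.24, 0.0191) and Cacna1h 0.73 (SE 0.24, 0.0384). Orai1 was already lower in null than in WT oocytes at GV (-0.76). At MII its difference between genotypes was 0.15 and not called (limma, adjusted p = 0.547). The median interaction term was 0.45 over the members and 0.48 over all genes tested.

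Orai1 kept this call with each of the GV and MII libraries left out. Camk2g lost it without WT GV replicate 1, null GV replicate 1, WT MII replicate 1 or null MII replicate 1 (limma, adjusted p = 0.0501 to 0.0777, range over all alternatives 0.0102 to 0.780). Cacna1h lost it without WT GV replicate 2, null GV replicate 2 or any of the 4 MII libraries (limma, adjusted p = 0.0523 to 0.134, range over all alternatives 0.00942 to 0.134). Without ERCC scaling 0 members were called positive, though 5 had values above 0, and the median over all genes was 0.03. Itpr2 was then called negative, at -0.84 (limma, adjusted p = 0.00863). With the scaling its term was -0.17 and not called (limma, adjusted p = 0.560).

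A ratio of transcripts within a library does not depend on the ERCC factor, which cancels. The ratio of Itpr2 to Itpr1 was chosen after the values were seen and is given with no test. In FPKM, it was 1.33 and 1.49 in WT growing, 2.56 and 2.15 in WT GV and 5.05 and 5.48 in WT MII libraries. In the null libraries it was 4.36 and 3.20 in growing, 4.58 and 6.37 in GV and 7.88 and 7.35 in MII oocytes. At each stage both null libraries lay above both WT libraries, and in both genotypes the ratio was higher at each later stage. Itpr2 exceeded Itpr1 per length in all 12 libraries.

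**Figure D4:**
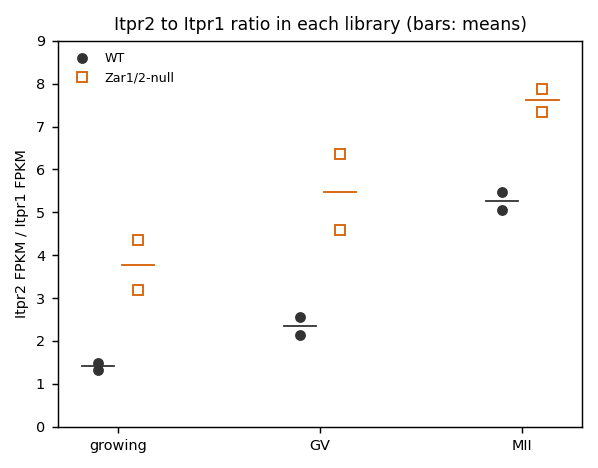
Ratio of Itpr2 to Itpr1 FPKM in each library by stage, from which the ERCC factor cancels. Circles are WT and squares Zar1/2-null libraries, and the lowest values are those of the WT growing libraries, 1.33 and 1.49, and the highest those of the null MII libraries, 7.88 and 7.35.

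The companion sensor Stim2 changed opposite to Stim1 in growing oocytes. Stim2 was at 14.2 and 13.5 FPKM in WT and at 3.33 and 2.64 FPKM in null growing libraries, a difference of -1.91 (SE 0.16, limma, adjusted p = 1.47e-05). It was lower in null oocytes at GV (-1.64) and MII (-0.91) too, and all of these differences passed the test under each scaling. The ratio of Stim1 to Stim2 within a library, chosen after the values were seen and not tested, was 0.116 and 0.0880 in WT and 1.40 and 1.76 in null growing oocytes.

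Stim2 came from a wider list of 78 calcium genes drawn up by role, of which 77 were in the table and 42 were tested. In growing oocytes 2 of the 42 were higher in null libraries, Itpr3 (0.74, SE 0.15, limma, adjusted p = 0.00271) and Camk4 (0.33, limma, adjusted p = 0.0383), both with group means near or under 1 FPKM, and 11 were lower. In GV oocytes 0 of the 42 were higher and 19 lower. The shares over all genes tested were 10.6% higher and 24.4% lower in growing and 2.83% and 40.6% in GV oocytes. Without ERCC scaling the counts were 4 higher and 6 lower in growing and 2 higher and 3 lower in GV oocytes. The shares over all genes tested were then 14.9% and 12.3% in growing and 7.19% and 13.5% in GV oocytes. At these stages Stim2, Mcur1, a regulator of mitochondrial calcium uptake, and Inpp5a, a phosphatase that removes inositol trisphosphate, were named by the rule as the lower genes. Mcur1 differed by -1.11 in growing and -0.87 in GV oocytes and Inpp5a by -1.04 and -0.77. Without ERCC scaling both were still called lower in growing oocytes, and in GV oocytes Mcur1 was (-0.47) and Inpp5a was not (-0.43). Plcz1, the phospholipase C that sperm deliver, was listed at 0 in all 12 libraries.

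From GV to MII, 40 of the 42 were lower in WT oocytes and 0 higher, where 93.4% of all genes tested were lower. Without ERCC scaling 21 were lower and 7 higher, where 47.6% and 19.7% of all genes tested were. With the scaling, Calm2, a calmodulin gene, changed by -5.51, Vdac3 by -4.84 and Vdac2 by -3.65, the latter both channels of the outer mitochondrial membrane. From growing to GV, 17 were lower in WT oocytes and 0 higher, where 28.7% of all genes tested were lower. Without ERCC scaling 2 were lower and 1 higher, where 3.23% and 3.66% of all genes tested were. With the scaling, Prkcd, a protein kinase C, was at -1.15, Stim2 at -0.96 and Micu2, a gatekeeper of the mitochondrial calcium uniporter, at -0.85.

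Genes with the most similar profile over the 6 group means were sought among 5966 genes, as the root mean square difference of centred log2(FPKM + 1). For Itpr1 the nearest were Ubn1 (0.0383) and Cenpa (0.0467). For Trpv3 they were Trappc2 (0.0596), Wtap (0.0628) and Pttg1 (0.0701). These averaged 114, 208 and 3143 FPKM, against 0.719 FPKM for Trpv3. At so low a level the added 1 FPKM flattens the profile of Trpv3, so these genes need not match it in fold change. For Camk2g the nearest were Hpse (0.0556), Snx14 (0.0594) and Pgrmc1 (0.0620). The measure covers 6 points that share libraries and scaling factors, and it is a description with no test.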

How the data were processed

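Libraries were grouped by genotype and stage from the labels, 2 in each of 6 groups. Per the labels and methods, the authors made Smart-seq2 libraries with oligo-dT primers and an ERCC spike-in, and the submitters' processing notes name TopHat2 2.1.1, Cufflinks 2.2.1 and mm9. The authors deposited FPKM values multiplied by an ERCC factor for each library. These factors were recovered here, since 100% of the values in each library return to 6 significant digits once divided by them. The table holds no counts, so the reads behind a single value are unknown. On average 33.5% of genes are listed at 0, which need not mean absence.

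Of 23230 genes, 11502 that reached 1 FPKM somewhere were tested on log2(FPKM + 1) with limma 3.58.1 (R 4.3.3), using group as the only factor across the 12 libraries and an intensity trend in eBayes. P-values were corrected for all genes tested (Benjamini-Hochberg), and intervals are at 95%. The added 1 FPKM understates changes of low genes. Under the 3-fold rule, means below 1 FPKM were raised to 1.

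The members and lists were chosen with earlier results of these data known. Named genes are the members, Zar1, Zar1l, the nearest 3 profiles of Itpr1, Trpv3 and Camk2g among genes averaging 5 FPKM or more (1 of those of Itpr1 is not reported here), and from the wider list up to 3 called genes per comparison and direction with libraries apart and the larger mean at 5 FPKM or more. Itpr3, Camk4 and Plcz1 were named after their values were seen. In the wider list 6 genes were found by older symbols. Positions and 3′ ends came from the NCBIM37 (mm9) genome with GENCODE models, in which 86.6% of the genes tested had a matching 3′ UTR of at least 100 bases. Alternatives were no ERCC scaling, median scaling, a pseudocount or floor of 0.1 FPKM, a mean of 5 FPKM or more, no filter, no trend, only the compared groups, a 3-fold difference for every library pair, a replicate block, and each library left out.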

Additional observations from a re-analysis of the deposited data

Results flagged for a closer look

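Changes of 4 members between stages differed between the genotypes by a limma interaction term with Benjamini-Hochberg adjustment over all genes tested. From GV to MII the change in null minus that in WT oocytes was 0.91 for Orai1, 0.73 for Cacna1h and 0.84 for Camk2g. From growing to GV it was -1.37 for Stim1. For Orai1, null oocytes were already lower than WT at GV (-0.76), and the difference of 0.15 at MII was not called. Without ERCC scaling the Stim1 term was also past the threshold, at -1.46. The other 3 were not, at 0.52 for Orai1, 0.17 for Camk2g and 0.99 (SE 0.38) for Cacna1h.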

How the results depend on the processing

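In growing oocytes the 2 members lower in null libraries became 1 without ERCC scaling, with median scaling or with only the compared groups fitted. Among members averaging at least 5 FPKM they became 0, and the 2 higher became 1. That filter leaves Itpr1, Stim1, Trpv3, Trpm7 and Cacna1h untested in every comparison. Counts fall under it for this reason, and no member still tested lost its call. In GV oocytes the 4 lower became 0 without ERCC scaling, 0 with median scaling, 2 among members averaging at least 5 FPKM and 1 with only the compared groups, and the 1 higher became 0 with a pseudocount of 0.1 FPKM and 0 with only the compared groups. At MII the 1 higher became 2 with a pseudocount of 0.1 FPKM. From growing to GV in WT oocytes, 1 member was higher without ERCC scaling and 1 with median scaling (0 otherwise), and the 4 lower became 0, 0 and, averaging at least 5 FPKM, 2. From GV to MII in WT oocytes, 2 were higher without ERCC scaling and 5 with median scaling, where 19.7% and 29.2% of all genes tested were. The 9 lower became 4 in both, where 47.6% and 41.3% of all genes tested were lower. They became 4 of the members averaging at least 5 FPKM, of which fewer were tested. The 3 interaction terms called positive became 0 without ERCC scaling and 0 with median scaling, where 15.1% and 14.9% of all genes tested were called positive. In each, 1 term was called negative, where 6.46% and 8.63% of all genes tested were. The 1 member past 3-fold in growing oocytes became 0 when every pair of libraries had to differ 3-fold. With a floor of 0.1 FPKM, 1 passed at MII where 0 had. The 2 from GV to MII in WT oocytes became 5 with that floor and 1 without ERCC scaling. With median scaling the shares of all genes tested higher and lower were 14.7% and 11.8% in growing and 9.07% and 11.2% in GV oocytes. From growing to GV in WT oocytes they were 2.9% and 2.98%. Shares over all genes are not given for the remaining settings or the 3-fold alternatives. Those counts are not read as traits of the members.

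Changes from GV to MII in WT oocytes reversed without ERCC scaling and with median scaling for Itpr1 (0.33 and 0.66), Atp2a2 (0.21 and 0.57), Atp2b1 (0.63 and 0.98) and Camk2g (0.31 and 0.66), and with median scaling for Trpv3 (0.12). In null oocytes they reversed for Itpr1 (0.14 and 0.39) and Camk2g (0.48 and 0.76), while Itpr2 (0.65 and 0.93) and Atp2b1 (0.68 and 0.95), not called with ERCC scaling, were called higher. The change of Atp2b1 from growing to GV in null oocytes reversed with median scaling (0.022). By construction these settings remove the spike-in from the values. For the other settings the cause was not tested.

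With each library left out in turn, the members called ranged from 2 to 2 higher and 1 to 3 lower in growing, 0 to 1 higher and 1 to 4 lower in GV and 0 to 1 higher and 0 to 0 lower in MII oocytes. They ranged from 0 to 0 higher and 2 to 4 lower from growing to GV, 0 to 0 higher and 9 to 9 lower from GV to MII in WT oocytes, and 1 to 3 positive and 0 to 0 negative interaction terms. Where 1 library was left in a group, its spread was taken as that of the other groups.

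Replicate numbers were not treated as pairs. Apart from the ERCC factor, a shift common to all genes that is set within a replicate number, differences between replicates correlated between groups from -0.12 to 0.16, above 0.1 in 4 of 15 pairs of groups. A replicate block moved the members higher at MII from 1 to 2 and changed the call of 3 results for single genes, all of which became called. Over all alternatives, values for single genes kept their side of the threshold 986 times, of which 47 uncalled values changed sign. They lost the call 87 times, gained one 28 times (6 with the sign changed), and 14 called values reversed.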

Other observations

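Among 8 genes tested whose proteins bind calcium or fold proteins in the secretory pathway, 4 were higher and 2 lower in null than in WT MII oocytes, where 21.5% of all genes tested were higher and 10.3% lower. Calr, the calcium-binding chaperone calreticulin, averaged 45.1 FPKM in null and 10.2 FPKM in WT oocytes, a difference of 2.07 (SE 0.24, limma, Benjamini-Hochberg adjusted p = 5.19e-05). Hspa5, the chaperone BiP, averaged 25.7 and 5.55 FPKM (2.03, limma, adjusted p = 1.02e-06), and Erp44, a thiol-dependent chaperone of the early secretory pathway, 31.7 and 8.81 FPKM (1.74, limma, adjusted p = 5.98e-05). The membrane-bound chaperone Canx went the other way, at 12.2 and 20.0 FPKM (-0.67, limma, adjusted p = 0.00521). Over the wider list, 9 of 42 genes were higher and 7 lower in null MII oocytes, a share of higher genes near that over all genes, with Ppp3r1, a calcineurin subunit, at -0.66 and Mcur1 at -0.59. The 6 genes named here were called in the same direction without ERCC scaling and with median scaling. The counts over the list became 9 higher and 13 lower without ERCC scaling, where 24.6% and 23.4% of all genes tested were.

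In the change from GV to MII, the interaction term was called positive, a smaller fall in null oocytes, for 14 of the 42 and negative for 0. That is close to the 33.9% of all genes tested that were called positive. Without ERCC scaling the counts were 8 and 3, where 15.1% of all genes tested were called positive and 6.46% negative. Hspa5 (2.64), Calr (2.40) and Sdf4 (2.12), a calcium-binding protein of the Golgi, had the highest values among those named by the rule.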
